A study of Mus musculus with 2 samples.

Results

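The 10 heat shock protein and chaperone genes described here were followed through the cell classes of a post-ischemic mouse kidney, and they were taken by symbol from a fixed list. All 10 of 10 listed symbols were present among the 32285 genes of the files. They were the heat-inducible HSP70 genes Hspa1a and Hspa1b, the constitutive HSP70 gene Hspa8, the HSP110 gene Hsph1, the J-domain gene Dnajb1, the co-chaperone gene Bag3, the HSP90 gene Hsp90aa1, the small heat shock protein gene Hspb1, and the mitochondrial chaperonin genes Hspd1 and Hspe1. The libraries came from 1 control mouse given saline and 1 mouse given JPI-289, an inhibitor of poly(ADP-ribose) polymerase, at 100 mg/kg. Both were male C57BL/6 mice 9 weeks old, both had bilateral renal ischemia-reperfusion injury with the agent put into the peritoneal cavity just before reperfusion, and both were sacrificed 24 h later. No sham or uninjured kidney was used here, so every level belongs to an injured kidney.

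Heat shock proteins are chaperones that bind unfolded proteins and help them fold again or pass them to degradation. HSP70 does this in cycles of ATP use, J-domain proteins such as Dnajb1 bring it clients and start the cycle, and HSP110 and BAG proteins exchange its nucleotide and release the client. HSP90 completes the folding of kinases and receptors, small heat shock proteins hold unfolded chains without ATP, and the mitochondrial chaperonin folds proteins imported into the matrix. Heat shock factor 1 raises many of these genes together under protein stress, through short repeated elements in their promoters, and ischemia of the kidney is a known cause of such a response.

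The single cell libraries count unique molecular identifiers (UMIs), each standing for 1 captured RNA molecule. Of 8787 cells kept, 3749 were from the control and 5038 from the JPI-289 library, with median depths of 2059 and 1866.5 UMIs. The 8 classes compared had at least 50 cells in each library, and their marker lists were detected in full in both. They were proximal tubule (PT)-like with 1812 control and 1902 JPI-289 cells, distal tubule-like with 535 and 705, collecting duct-like with 124 and 444, endothelial cell (EC)-like with 502 and 568, stroma-like with 157 and 99, neutrophil-like with 196 and 652, macrophage-like with 201 and 303, and red blood cell-like with 76 and 124. Every PT-like cluster was almost wholly from 1 library, so within this class the libraries do not share clusters. EC-like cells lay in cluster 3 with 298 and 350 cells, in cluster 13 with 203 and 36, and in cluster 17 with 1 and 182, and Hspa1b was among the leading genes of cluster 3. Every EC-like ratio below thus compares different mixes of clusters, and the part of this in the ratios was not tested. A level is a class's UMIs of a gene scaled to 1000000 UMIs of the class (CPM), with an exact 95% Poisson interval. A ratio is the level in JPI-289 over that in control on the log2 scale, with 0.5 UMIs added to each sum and an exact 95% binomial interval. With 1 library per condition there was no test, the intervals cover counting error only, and they are too narrow wherever a few cells hold most UMIs of a gene.

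Hspa1a and Hspa1b lie 9951 bases apart on the reverse strand of chromosome 17 (build mm10), Hspa1b at chr17:34956436-34959238 and Hspa1a at chr17:34969190-34972156, in GENCODE vM21. Of the stretches of 90 bases in the Hspa1a transcript, 49.3% were found whole in that of Hspa1b, so reads may be split between the genes or lost, and the genes are also given as a sum, called the pair. Their promoters are shown because they are almost one sequence, with 247 of 250 bases before the start the same. The stretches below run from 215 to 86 bases before each start (RefSeq, GRCm38.p6, the same assembly as mm10), and capitals mark the heat shock element.
Hspa1a, chr17:34972242-34972371, reverse strand: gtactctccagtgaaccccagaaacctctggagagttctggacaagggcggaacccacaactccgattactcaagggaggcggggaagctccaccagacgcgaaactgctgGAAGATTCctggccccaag
Hspa1b, chr17:34959324-34959453, reverse strand: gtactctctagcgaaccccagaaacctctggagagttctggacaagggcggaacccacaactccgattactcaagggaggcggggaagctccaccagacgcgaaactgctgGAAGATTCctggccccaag
Counted from the first printed base, Hspa1b differs from Hspa1a only by C9T and T12C in these 130 bases, and both have the element 104 bases before the start. Gm20481 overlaps Hspa1a on the opposite strand over all of its 2225 bases, and whether the counting used strand is not given in the sources used here.

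The element searched for was a pair of units facing each other, GAANNTTC or TTCNNGAA, which read the same on both strands. A stricter form had 3 alternating units, GAANNTTCNNGAA or TTCNNGAANNTTC, one the reverse complement of the other, and each holds the shorter form. The window ran from 250 bases before to 50 after a start, and 8 of 10 members were in the table. Windows of 7 of these 8 held the shorter form, against 15.1% of 32851 windows of all genes, and 3 held the stricter form, against 0.603%. A member counted with a match in any of its windows, and Hsph1, Hspd1 and Dnajb1 had 2 each, while the share of all genes is per window. Before the start alone, 6 members held the shorter form, against 12.8% of windows, and 2 the stricter form, against 0.466%. Hsph1 held the stricter form only after the start. Hspd1 and Hspe1 are transcribed away from each other on chromosome 1, where their annotated spans share 112 bases, and the same stricter element lies before a start of each. Hspb1 had 2 elements. A match of letters is a description and not a site of binding.
Hspe1, chr1:55088033-55088092, forward strand, 115 to 56 bases before the start and inside the annotated span of Hspd1, stricter elements in capitals: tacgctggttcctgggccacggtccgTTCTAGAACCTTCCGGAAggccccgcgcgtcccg
Hspb1, chr5:135887782-135887841, forward strand, 137 to 78 bases before the start, shorter elements in capitals: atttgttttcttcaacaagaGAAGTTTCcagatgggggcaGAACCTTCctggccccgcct
The 2 windows of Dnajb1 held neither form, and that of Bag3 held the shorter form only after the start.

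The inducible HSP70 pair was not spread over the cells but packed into very few of them. Of all cells, 86.4% had no UMI of the pair. In 23 of 8787 cells (0.262%) the pair made up at least 1% of the cell's UMIs, and these 23 cells, called high cells here, held 5367 of its 9541 UMIs, or 56.3%. The control library had 10 high cells (0.267%, exact 95% interval 0.128 to 0.490%) and the JPI-289 library 13 (0.258%, 0.137 to 0.441%), so the intervals of the shares overlapped. At the top, the pair alone took 30.3% of the UMIs of an EC-like cell of the JPI-289 library, 1194 of 3944. The line at 1% was drawn after the values were seen, and there is no gap at it, since 36 cells reached 0.5% and 17 cells reached 2%.

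**Figure D1:**
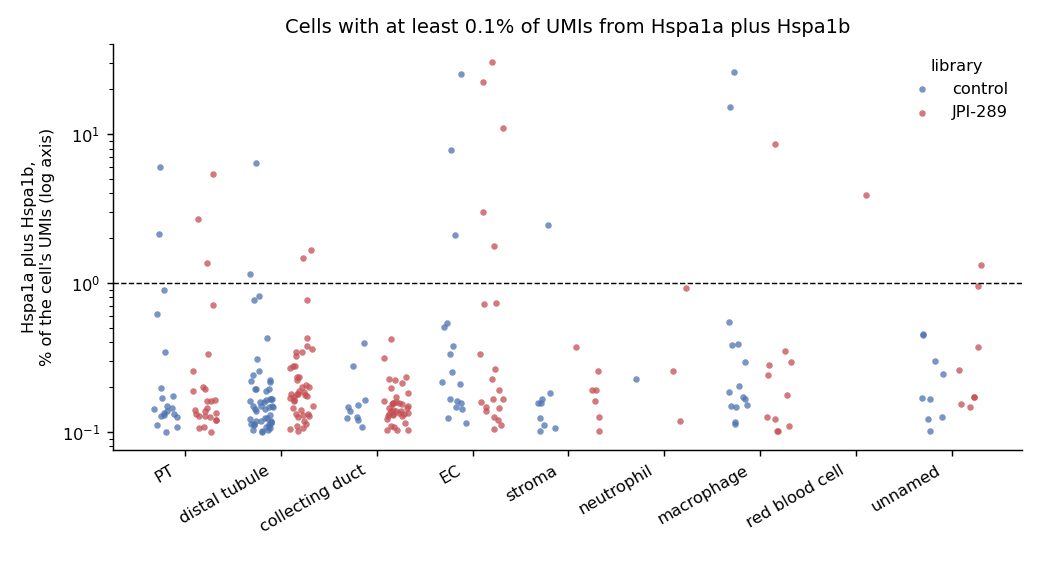
Share of each cell's UMIs that came from Hspa1a plus Hspa1b (log axis) by cell class, for cells at or above 0.1%. Each point is 1 cell, blue for control and red for JPI-289. Of the 294 such cells, those that were podocyte-like or lymphocyte-like are not drawn. The dashed line is at 1%, and 23 cells of both libraries lie above it, up to 30.3%.

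High cells were found in most classes. There were 3 control and 5 JPI-289 high cells among EC-like cells, 2 and 3 among PT-like cells, 2 and 2 among distal tubule-like cells, 2 and 1 among macrophage-like cells, 1 and 0 among stroma-like cells, 0 and 1 among red blood cell-like cells, and 0 and 1 among cells of no named class. No collecting duct-like or neutrophil-like cell was one, which at 0 of 444 JPI-289 collecting duct-like cells still allows up to 0.827% (exact 95% interval). High cells were no deeper than the rest, with a median of 1684 UMIs against 1940.5, and their median mitochondrial share was 3.22% against 3.55%. Their median doublet score stood at the percentile 73.7 of all cells, and its part in the result was not tested.

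The other members were also high in the high cells. Their UMIs were set against those expected from other cells of the same class and library at the same depth. Hsph1, which exchanges the nucleotide of HSP70, had 321 UMIs where 1.97 were expected, a ratio of 163, and was detected in 19 of 23 high cells. Dnajb1 had 180 against 5.6, Hsp90aa1 568 against 25.2, and Bag3 142 against 6.35, which are ratios of 32.1, 22.5 and 22.4. For Hspb1 there were 1895 UMIs against 103, and for the chaperonin genes Hspd1 198 against 10.5 and Hspe1 124 against 12.6. Of the Hspd1 UMIs, 99 were in 1 control EC-like cell, and Hspd1 was detected in 14 of 23 high cells. Its ratio was 31.2 in control and 8.13 in JPI-289. Hspa8, the constitutive HSP70, showed the lowest ratio of the members, 332 against 77.6 or 4.28. All 10 members were above expectation in both libraries, but Hspa1a and Hspa1b had served to choose the cells. This count has no share of all genes beside it.

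Because the cells were chosen by the pair, the values of Hspa1a and Hspa1b in them are a description of the choice. Among the 896 genes with at least 20 UMIs observed plus expected, Hsph1, Dnajb1, Hsp90aa1, Bag3, Hspb1, Hspd1, Hspe1 and Hspa8 ranked 3, 6, 7, 8, 10, 11, 18 and 45 by this ratio after 0.5 UMIs were added to both sums. Gm20481, opposite Hspa1a, ranked 4 with 44 UMIs against 0.153, and 11 high cells had it. Hsph1, Dnajb1, Bag3, Hspd1, Hspe1 and Gm20481 had under 20 UMIs expected, so only their counts in the high cells brought them into this set. Genes as low that were not raised are missing from it, so these ranks are a description. Hsp90aa1, Hspb1 and Hspa8 had over 20 expected. Of the other chaperone lists, the endoplasmic reticulum (ER) HSP70 gene Hspa5 had 390 UMIs against 34.3, the small heat shock protein gene Cryab 167 against 17.8, and the J-domain gene Dnaja1 101 against 12.2. The cytosolic HSP90 gene Hsp90ab1 had 462 against 131. The mitochondrial HSP70 gene Hspa9 (19 against 15.4) and the cytosolic chaperonin gene Cct2 (14 against 14.2) were close to expectation. Cct2 ranked 332 of the 896 genes over both libraries, and the genes ranked after it were below expectation too. Many genes besides the members were thus above expectation. Immediate early genes moved with the high cells in part, with Egr1 at 248 against 28.4, Jun at 525 against 74.5 and Fos at 113 against 83.4, and their part in the result was not tested.

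**Figure D2:**
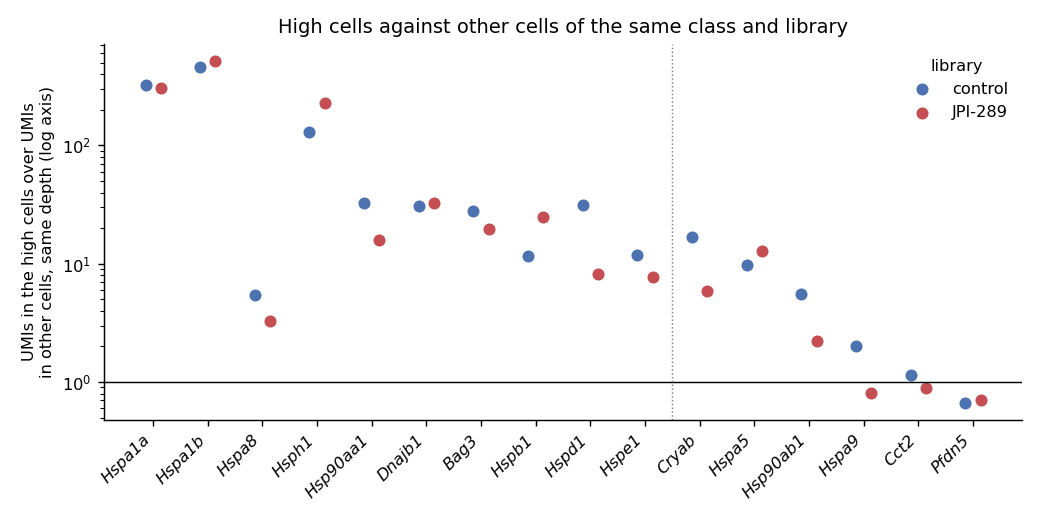
Ratio of UMIs in the high cells to UMIs expected from other cells of the same class and library (log axis), blue for the 10 control and red for the 13 JPI-289 high cells; members are left of the dotted line and other chaperones right of it. Hspa1a and Hspa1b chose the cells, and Hspa8 at 4.28 over both libraries has the lowest ratio of the members, while Cct2 and Pfdn5 lie near or below 1.

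The high cells differed among themselves in which partners they held. The EC-like JPI-289 cell with 1194 pair UMIs also had 382 of Hspb1, 83 of Hsp90aa1, 73 of Hsph1, 24 of Dnajb1 and 10 of Bag3, and the members together were 46.7% of its UMIs. The leading EC-like control cell had 1067 of the pair with 116 of Hspb1, 97 of Hsp90aa1, 81 of Hsph1 and 99 of Hspd1, and the members were 36.4%. A macrophage-like control cell had 636 of the pair and 174 of Hspb1 but 4 of Hsph1. In a macrophage-like JPI-289 cell with 139 of the pair there was no UMI of Hspb1 or Dnajb1. Hspb1 was at 0 in 4 high cells and Hsph1 in 4.

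By summed level, the pair was highest in EC-like cells, but by the share of cells in which it was seen collecting duct-like cells led. EC-like cells had 1023 (979 to 1069) CPM in control and 1399 (1343 to 1456) in JPI-289, and 1 cell of each library supplied 52.9% and 49.8% of these UMIs. Macrophage-like cells followed in control with 841 (790 to 894) but had only 164 (143 to 186) in JPI-289, and 1 cell supplied 63.2% and 61.8%. Distal tubule-like cells had 466 (433 to 501) and 376 (350 to 404), collecting duct-like cells 306 (275 to 339) and 318 (291 to 348), and stroma-like cells 176 (149 to 207) and 212 (169 to 262). PT-like cells had 36.6 (32.5 to 41.0) and 20.5 (17.5 to 23.9), below the 88.4 and 131 of the free RNA in barcodes under 100 UMIs, so this level was no higher than that of free RNA. Neutrophil-like cells had 11.5 (3.73 to 26.8) and 40.4 (31.2 to 51.5), and 1 JPI-289 cell supplied 58.5% of the JPI-289 UMIs. The pair made up 0.92% of that cell's UMIs, just under the line for high cells. In stroma-like cells of JPI-289 1 cell supplied 39.3%.

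With each cell thinned to 1000 UMIs, and shallower cells left out, a UMI of the pair was found in 23.8% (15.9 to 33.3%) of the 101 collecting duct-like cells from control, and in 29.3% (24.9 to 33.9%) of the 410 from JPI-289. The share in distal tubule-like cells was 18.5% (14.4 to 23.0%) in control and 13.4% (10.4 to 16.7%) in JPI-289. Among EC-like cells it was 8.82% (6.11 to 12.2%) and then 10.9% (7.96 to 14.5%). PT-like cells, at 1.48% and 1.39%, were as low as neutrophil-like cells, at 1.13% and 1.55%. Before thinning, 58.1% and 47.3% of collecting duct-like cells had one, and the cells thinned had medians of 9166 and 1606 UMIs. In this class no cell held more than 8.70% of the pair's UMIs, so its level is carried by many cells. The order of classes thus depends on the measure, and in EC-like and macrophage-like cells the summed level describes a few cells.

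The comparison of JPI-289 with control for the pair rested on the high cells in EC-like, macrophage-like and red blood cell-like cells. In EC-like cells there were 2017 control and 2399 JPI-289 UMIs, and the ratio was 0.45 (0.37 to 0.54). Without the high cells 630 and 250 were left, and the ratio was -1.13 (-1.35 to -0.92), in the other direction. Without the 59 cells at or above 0.3% it was -0.03, so the direction of the pair in EC-like cells depended on which cells were left out. In macrophage-like cells the pair went from 1007 to 225 UMIs with a ratio of -2.36 (-2.58 to -2.15), and of -0.97 (-1.38 to -0.58) without the high cells. In red blood cell-like cells 71 of 72 JPI-289 UMIs were in 1 cell and control had none, which is at least 14.9-fold higher against a floor of 3 counts.

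In PT-like cells the pair had 298 control and 167 JPI-289 UMIs, a ratio of -0.83 (-1.11 to -0.55), or -0.88 (-1.23 to -0.55) without the high cells. It was -0.083 without the cells at or above 0.3%, 0.075 with each cell weighted equally, and 1 control cell held 32.6% of the control UMIs. Collecting duct-like cells, with 368 and 489 UMIs, gave 0.06 (-0.14 to 0.26). Distal tubule-like cells gave -0.31 (-0.46 to -0.16), or -0.23 (-0.42 to -0.04) without the high cells. Cells with thick ascending limb markers had 570 and 376 UMIs (-1.06, -1.25 to -0.87), and those with distal convoluted or connecting tubule markers 164 and 381 (1.01, 0.74 to 1.28). Single cells held 283 of the 570 and 255 of the 381. Without the high cells 271 and 345 UMIs were left in the former (-0.12, -0.35 to 0.12) and 164 and 126 in the latter (-0.55, -0.90 to -0.21), so the opposite directions were not kept. Hspa1a and Hspa1b taken singly had opposite signs in collecting duct-like cells, -0.50 (-0.82 to -0.19) and 0.44 (0.18 to 0.71), and how reads were assigned between them was not tested. In distal tubule-like cells they were at -0.79 (-0.98 to -0.59) and 0.40 (0.16 to 0.65), but without the high cells at -0.50 (-0.77 to -0.24) and 0.07 (-0.21 to 0.36), and Hspa1b was at -0.10 without the cells at or above 0.3%.

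Over all 10 members, 4 of 10 measured in PT-like cells were at least 2-fold higher in JPI-289, where 10.8% of 11541 genes with at least 20 UMIs were, and 0 of 10 were 2-fold lower, where 18.5% of genes were. The 4 were Hspb1, Hsp90aa1, Dnajb1 and Bag3. The median ratio of the members in PT-like cells was 0.09, beside -0.03 for all genes. In EC-like cells 0 of 10 were past 2-fold either way, where 5.23% of genes were higher and 18.5% lower, and the median was 0.13 beside -0.18. Without the high cells 0 of 10 were higher and 2, Hspa1b and Hsph1, were lower, where 5.4% and 18.6% of genes were. The median was then -0.24 beside -0.17 for all genes, but 0.07 without the cells at or above 0.3%. Its sign thus depended on which cells were left out. The share of members 2-fold higher in PT-like cells was above that of all genes, and in EC-like cells it was not.

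In distal tubule-like cells no member was 2-fold higher and 1 of 10, Hsph1, was 2-fold lower, with 5.94% and 12.1% of all genes. Collecting duct-like cells had Bag3 higher and Hsph1 lower among 10, with 7.27% and 14.4%. Stroma-like cells had none higher and Hsph1 lower among 10, with 11.5% and 13.9%. In neutrophil-like cells Hspa1b, Hspb1 and Bag3 of 9 were higher and none lower, with 11.5% and 10.5%, all on few UMIs, and Hspb1 turned from 1.44 to -0.90 with free RNA subtracted. They had 0, 6 and 2 control UMIs against 34, 65 and 27, so they reached 20 UMIs only through JPI-289. That library had 1610107 UMIs in this class against 434980 in control, so the limit favoured members higher in JPI-289. For Hspa1b 1 JPI-289 cell held 58.8% of the 34 JPI-289 UMIs. No neutrophil-like cell was a high cell, so leaving the high cells out did not change this ratio. In macrophage-like cells Hspa1a, Hspa1b and Hspb1 of 10 were lower and none higher, with 15.4% and 8.88%, and the median was -0.74 beside -0.03. Without the high cells these 3 had ratios of -1.20, -0.48 and -1.53, and Hsph1 came to -1.51. In red blood cell-like cells Hspa1a, Hspa1b, Hspb1, Hsp90aa1 and Dnajb1 of 8 were higher and none lower, with 19.4% and 6.54%, and without 1 cell 3 members were left with 20 UMIs or more, none past 2-fold. The members called higher there had at most 3 control UMIs and also reached 20 only through JPI-289.

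**Figure D3:**
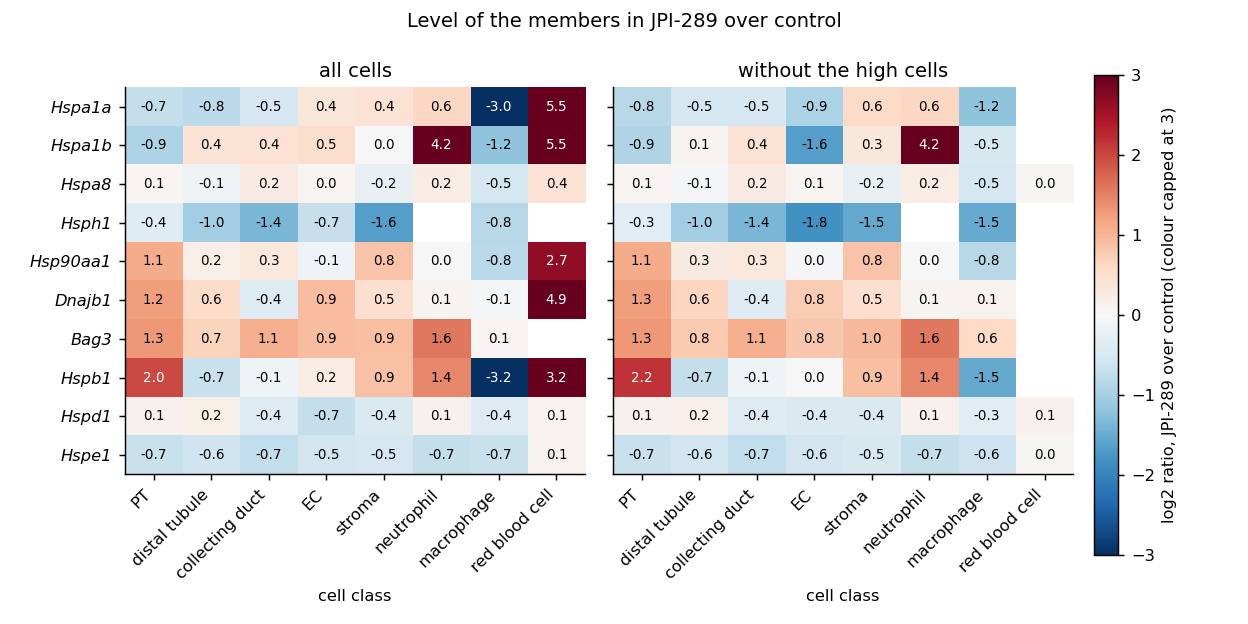
Log2 ratio of JPI-289 over control for each member (rows) in each class (columns), with all cells (left) and without the 23 high cells (right); red is higher and blue lower in JPI-289, colours stop at 3, and blank fields had under 20 UMIs. The Hspe1 row changes by less than 0.1 and the PT column by up to 0.20, while Bag3 in macrophage-like cells goes from 0.06 to 0.59, Hspa1b in EC-like cells goes from 0.53 to -1.64, and the red blood cell column loses its high values.

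Hspb1, the HSP27 of the mouse, was the member that marked EC-like and stroma-like cells, and it was also the one with the highest ratio in PT-like cells. Its level was 3043 (2967 to 3121) in control and 3543 (3454 to 3633) in JPI-289 EC-like cells and 1935 (1844 to 2031) and 3578 (3395 to 3769) in stroma-like cells. In PT-like cells it was 61.7 (56.5 to 67.4) in control and 242 (232 to 253) in JPI-289, with 503 and 1970 UMIs and a ratio of 1.97 (1.83 to 2.12), which was 2.17 without the high cells and 1.11 with each cell weighted equally. Of thinned PT-like cells, 3.48% (2.57 to 4.61%) had a UMI of it in control and 10.6% (8.98 to 12.3%) in JPI-289, beside 1.13% and 3.27% of neutrophil-like cells. Its level was uneven, with 444 CPM in JPI-289 cluster 7 and 71.8 in cluster 6, led by Fgb, Fgg and Fga. Cluster 7 was led by Krt20, Inmt, Cyp2e1, Kap and Havcr1, of which Krt20 and Havcr1 are injured PT markers and Kap a PT marker. On the whole marker lists cluster 7 scored 2.18 for PT and 0.667 for injured PT, and cluster 6 scored 1.22 and 1.03. Control PT-like clusters had between 26.1 and 109. Free RNA held 311 and 308 CPM, above the PT-like level in both libraries, and with it subtracted the ratio was 2.22. In distal tubule-like cells Hspb1 went the other way, from 743 (701 to 787) to 468 (438 to 499), a ratio of -0.67 (-0.79 to -0.54).

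Hsp90aa1, the inducible cytosolic HSP90, had 231 (220 to 241) CPM in control and 500 (485 to 516) in JPI-289 PT-like cells, from 1879 and 4065 UMIs. The ratio was 1.12 (1.04 to 1.20), and the thinned PT-like cells with a UMI of it were 16.7% (14.7 to 18.8%) in control against 31.6% (29.2 to 34.2%) in JPI-289. These intervals count cells within 1 library each and do not measure the spread between mice. In control, PT-like cells were below EC-like, collecting duct-like, distal tubule-like, stroma-like and macrophage-like cells for this gene, and in JPI-289 their level did not differ beyond counting error from collecting duct-like and EC-like cells. Free RNA had 243 and 390 CPM of it. In EC-like cells it was 524 (493 to 557) and 483 (450 to 517), a ratio of -0.12 (-0.25 to 0.01). In stroma-like cells it went from 372 (333 to 415) to 670 (592 to 755), and in macrophage-like cells it went from 309 (278 to 342) to 176 (154 to 200).

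Dnajb1 and Bag3, the J-domain and BAG partners of HSP70, were higher in JPI-289 in PT-like and EC-like cells alike. Dnajb1 had 27.2 (23.8 to 31.1) CPM in control and 64.6 (59.2 to 70.4) in JPI-289 PT-like cells, a ratio of 1.24 (1.02 to 1.48). In EC-like cells it had 106 (92.1 to 121) and 201 (180 to 223), a ratio of 0.92 (0.67 to 1.17) with all cells and 0.77 without the high cells. Bag3 had 29.8 (26.2 to 33.8) and 73.2 (67.4 to 79.3) in PT-like cells, a ratio of 1.29 (1.08 to 1.52), and 118 (103 to 134) and 223 (201 to 246) in EC-like cells, a ratio of 0.92 (0.68 to 1.16) or 0.81 without the high cells. The share of thinned EC-like cells with a Bag3 UMI was 9.92% (7.04 to 13.5%) and 20.3% (16.3 to 24.7%). In 5 of 7 classes measured the interval of Bag3 was above 0, and in none below. The ratios ran from 0.06 (-0.50 to 0.63) in macrophage-like to 1.57 (-0.13 to 4.98) in neutrophil-like cells, and both of these intervals spanned 0. The neutrophil-like ratio rested on 2 control and 27 JPI-289 UMIs. Free RNA also had more Bag3 in JPI-289, at 65.8 and 111 CPM, above the PT-like levels, and its part in the result was not tested. For Dnajb1 free RNA had 38.5 and 43.6 CPM, so the PT-like level was below it in control and above it in JPI-289. Dnajb1 was not higher everywhere, with 135 (115 to 158) and 103 (87.4 to 120) in collecting duct-like cells. The ratio there was -0.40 (-0.72 to -0.07), but 1 cell held 40 of the 163 control UMIs (24.5%). That cell was not a high cell, so leaving the high cells out did not change this ratio.

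Hsph1 was lower in JPI-289 in all 6 classes where it was measured, while Bag3 had a positive ratio in each of them. Dnajb1 went the same way as Hsph1 in collecting duct-like cells, at -0.40 (-0.72 to -0.07), where 1 cell held 24.5% of its control UMIs. In macrophage-like cells Dnajb1 was at -0.06 (-0.55 to 0.45). The ratios of Hsph1 ran from -0.37 (-0.65 to -0.10) in PT-like to -1.64 (-3.75 to -0.28) in stroma-like cells, and 5 of 6 intervals were below 0. The counts were small, with 260 and 200 UMIs in PT-like, 66 and 41 in distal tubule-like, 37 and 18 in collecting duct-like and 30 and 4 in stroma-like cells. EC-like cells had 267 and 143, of which 1 control cell held 30.3% and 1 JPI-289 cell 51.0% of its library's UMIs. The ratio of -0.70 (-1.0 to -0.40) became -1.83 (-2.49 to -1.25) without the high cells. In macrophage-like cells the ratio was -0.82 (-1.78 to 0.07), and 0.0068 with each cell weighted equally. Free RNA also had less Hsph1 in JPI-289, at 47.6 and 29.1 CPM from 21 and 10 UMIs, a ratio of -0.67 (-1.96 to 0.44). Of the classes measured, only EC-like cells, at 135 and 83.4 CPM, were above it, and the others were below it in both libraries. Without the high cells EC-like cells had 61.3 and 17.1 CPM, which in JPI-289 was below free RNA too. The part of free RNA in the result was not tested.

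Hspa8, the HSP70 that cells make without stress, was past 2-fold in no class. It was detected in 63.8% and 62.9% of thinned PT-like cells, and its level there was 1111 (1088 to 1134) in control and 1158 (1134 to 1181) in JPI-289. The ratio was 0.06 (0.02 to 0.10) in PT-like cells and 0.05 (-0.03 to 0.13) in EC-like cells. Over the 8 classes it ran from -0.52 (-0.61 to -0.43) in macrophage-like to 0.43 (-0.18 to 1.08) in red blood cell-like cells. No PT-like cell held more than 0.939% of its UMIs in either library.

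**Figure D4:**
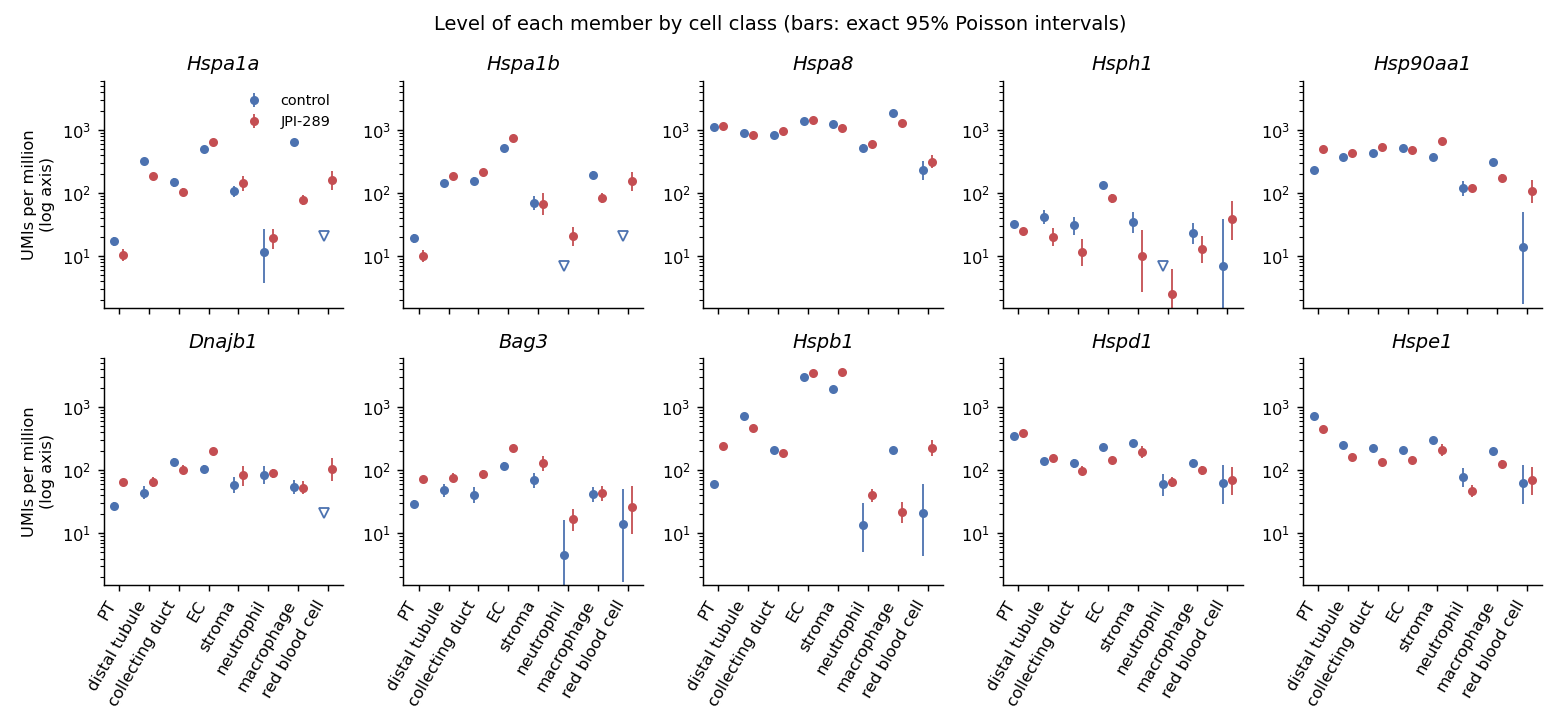
Level of each member in CPM (log axis) by cell class, blue for control and red for JPI-289; bars are exact 95% Poisson intervals and cover counting error only, and open triangles stand at the floor of 3 counts where no UMI was found. Hspb1 stands highest in EC-like and stroma-like cells, Hspd1 and Hspe1 in PT-like cells.

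Hspd1 and Hspe1 encode HSP60 and HSP10, the barrel and the lid of the mitochondrial chaperonin, from neighbouring genes that share a promoter region. Both were highest in PT-like cells of either library. Hspd1 had 357 (344 to 370) CPM in control and 389 (376 to 403) in JPI-289 PT-like cells, a ratio of 0.12 (0.05 to 0.20). Hspe1 had 729 (710 to 748) and 459 (444 to 474), from 5939 and 3727 UMIs, a ratio of -0.67 (-0.73 to -0.61), and the share of thinned PT-like cells with a UMI was 47.8% (45.1 to 50.5%) and 32.4% (29.9 to 34.9%). In these ratios between the libraries, Hspd1 and Hspe1 did not move together in PT-like cells. Over the 16 pairs of class and library, their levels had a Pearson's r of 0.93, which is a description.

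Hspe1 was lower in JPI-289 in 7 of 8 classes, each with its interval below 0. The ratios of these 7 lay between -0.75 (-1.02 to -0.48) in collecting duct-like and -0.49 (-0.87 to -0.14) in stroma-like cells. Red blood cell-like cells, with 9 and 16 UMIs, were the exception at 0.11 (-1.12 to 1.5). In PT-like cells the ratio was -0.079 when the 4 clusters with no PT marker among their leading genes were left out. This took out 1433 of 1812 control and 845 of 1902 JPI-289 cells. Among them were control clusters 1 and 5, with PT scores of 2.22 and 3.06. Their Hspe1 levels were near or above that of control cluster 18, which was kept, as was control cluster 14, low in Hspe1. Free RNA also had less, at 460 and 221 CPM, and its part in the result was not tested. With the free RNA subtracted the ratio was -0.66 in PT-like and -0.49 in EC-like cells, but 4.0 in neutrophil-like cells, where few UMIs were left. Hspd1 had an interval below 0 in 4 of 8 classes. Its ratio was lowest in EC-like cells, at -0.71 (-0.94 to -0.49), from 236 (215 to 258) and 144 (127 to 163) CPM. There 1 control cell held 21.3% of its UMIs, and the ratio was -0.44 (-0.69 to -0.20) without the high cells, -0.11 without the cells at or above 0.3%, and -1.40 with free RNA subtracted.

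Within the PT-like class the 4 control clusters and the 4 JPI-289 clusters could be compared one by one. Hsp90aa1 was at 402 to 601 CPM in JPI-289 clusters 4, 6 and 7 and at 125 to 262 in the control clusters, with no overlap. Cluster 12 of JPI-289, led by Neat1 and Malat1, was at 177, among the control clusters. Bag3 was at 23.5 to 27.4 in control clusters 1, 5 and 18 and at 52.2 to 83.8 in the JPI-289 clusters, and at 70.4 in control cluster 14, which shares the leading genes Gm26917 and Snhg11 with cluster 12. Hspe1 was at 755 to 926 in control clusters 1 and 5, at 741 in cluster 18 and at 386 to 605 in JPI-289 clusters 4, 6 and 7. It was lowest in clusters 14 and 12, at 114 and 56.1. Nuclear RNA moved with the class, Malat1 at 19186 and 27763 CPM, and its part in the result was not tested.

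**Figure D5:**
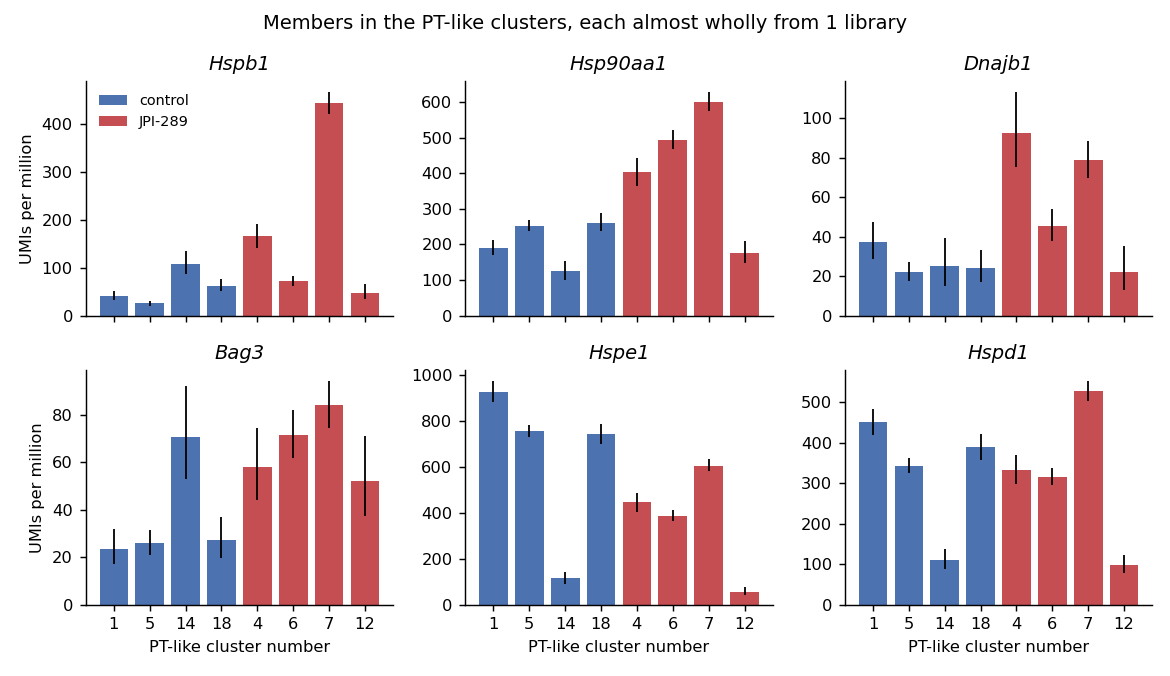
Levels of 6 members in CPM in the 8 PT-like clusters, numbered on the horizontal axis, blue for clusters almost wholly of control and red for those of JPI-289 cells; bars are exact 95% Poisson intervals. Hsp90aa1 is higher in clusters 4, 6 and 7 than in every control cluster, Hspb1 stands out in cluster 7, and Hspd1 and Hspe1 are low in clusters 14 and 12.

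The rest of the chaperone network was read by list in PT-like cells, where 48.7% of all genes measured were higher and 51.3% lower by any amount. Of the HSP90 co-chaperone list, 9 of 13 genes were higher and 4 lower in JPI-289, with a median of 0.38 beside -0.03 for all genes. Hsp90ab1, the constitutive HSP90, had 903 and 2096 CPM and a ratio of 1.21 (1.17 to 1.25), while Fkbp5, a glucocorticoid-induced immunophilin, had 118 and 45.3 and a ratio of -1.38 (-1.55 to -1.20). In the chaperonin CCT and prefoldin list, which folds actin and tubulin, 13 of 14 were higher and 1 lower, with a median of 0.49, Cct3 highest at 1.12 (0.98 to 1.27) and Pfdn1 lowest at -0.62 (-0.72 to -0.52). Pfdn5, with most UMIs, was at 0.05 (-0.02 to 0.12). Past 2-fold there were only 1 higher in the CCT list and 1 higher and 1 lower in the HSP90 list.

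Of the ER chaperones, 13 of 14 were lower by any amount in PT-like cells, with a median of -0.48, but only 2 of 14 were at least 2-fold lower, beside the 18.5% of all genes. Serpinh1, the collagen chaperone, was lowest at -1.40 (-1.81 to -1.02), Dnajb9 alone was higher at 0.62 (0.46 to 0.79), and Hspa5, with most UMIs, was at -0.06 (-0.15 to 0.03). Of the mitochondrial chaperones outside the members, 3 of 10 were higher and 7 lower with a median of -0.16, from 0.36 (0.17 to 0.54) for Lonp1 to -1.13 (-1.39 to -0.88) for Hscb, and Hspa9 was at 0.34 (0.26 to 0.42). Other HSP70 genes and exchange factors had 8 of 14 higher, with Hspa4l at 17.8 and 58.7 CPM (1.72, 1.45 to 2.0), Bag1 at 0.12 (0.03 to 0.22) and Bag4 at -0.79 (-1.22 to -0.37). J-domain genes had 10 of 13 higher, with Dnajc5 at 1.06 (0.90 to 1.22), Dnaja1 at 0.10 (-0.0013 to 0.21) and Dnajb4 at -0.75 (-1.05 to -0.46). Among small heat shock proteins 2 of 5 were higher, with Cryab at 0.74 (0.67 to 0.81) and Hspb6 at -0.58 (-0.88 to -0.29). Hsf1, the heat shock factor, had 126 and 165 UMIs (0.39, 0.05 to 0.74), and Hsbp1, which binds it, was at -0.22 (-0.31 to -0.13).

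In EC-like cells 41.2% of all genes measured were higher and 58.8% lower by any amount, with a median of -0.18. The CCT list had 8 of 14 higher (median 0.18), from 0.66 (0.48 to 0.85) for Cct2 to -0.72 (-1.01 to -0.45) for Cct4, with Pfdn5 at -0.26 (-0.41 to -0.11). The HSP90 list had 4 of 13 higher (median -0.33), with Hsp90ab1 at 0.40 (0.34 to 0.46) and Fkbp4 at -0.97 (-1.52 to -0.46). ER chaperones had 4 of 14 higher (median -0.45), with Hspa5 at 0.43 (0.33 to 0.53), Dnajb9 at 0.50 (0.17 to 0.85) and Sdf2l1 at -1.62 (-2.24 to -1.07). Hspa12b, an HSP70-like gene of endothelium, had 66.4 and 5.83 CPM and a ratio of -3.45 (-4.60 to -2.59), from 131 and 10 UMIs. Its list had 7 of 15 higher, with Bag1 at 0.08 (-0.14 to 0.30). In the same list Bag5 was at 0.48 (0.16 to 0.81), and among J-domain genes Dnajb12 was at 0.86 (0.38 to 1.37) and Dnaja1 at -0.48 (-0.67 to -0.29). Mitochondrial chaperones had 4 of 10 higher (median -0.50), with Hspa9 at 0.34 (0.13 to 0.54), Clpx at 0.58 (0.09 to 1.08) and Grpel1 at -0.82 (-1.13 to -0.52). Cryab was at -0.15 (-0.42 to 0.11), Hspb8 at -0.49 (-0.95 to -0.04), Hsf1 at -0.13 (-0.70 to 0.43) and Hsbp1 at -0.53 (-0.78 to -0.30).

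The nuclear RNAs Malat1 and Neat1 were at 0.53 and 0.78 in PT-like and 0.31 and 0.72 in EC-like cells. Immediate early genes had 5 of 12 higher in PT-like cells (median -0.24), from 0.80 (0.73 to 0.86) for Jund to -1.73 (-1.89 to -1.57) for Btg2, and 3 of 12 higher in EC-like cells (median -0.20), from 0.11 (0.03 to 0.19) for Junb to -0.87 (-1.09 to -0.66) for Atf3, with Jun at 0.05 (-0.02 to 0.12). Over the 16 pairs of class and library, the genes outside the lists whose levels were most like those of the inducible pair were Ehd4, Dusp7, Emp1, Cers5 and Ckap5, with Pearson's r from 0.83 to 0.87 on log2 levels. Those most like Hspd1 were Ccdc107, Hint1, Trnau1ap, Fcgrt and Gm26917, from 0.90 to 0.93. The pairs share 2 libraries and their depth, and the levels of the inducible pair rest on a few cells, so these are descriptions.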

How the data were processed

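The authors aligned reads of 2 single cell 5′ libraries to mm10 with Cell Ranger and deposited raw UMI counts for every barcode. The labels give version 5.0.1 and the file headers version 4. The library of the control held 38328760 UMIs and that of JPI-289 35548396. Barcodes over a total UMI limit, or with at least 500 UMIs and a profile unlike empty droplets (false discovery rate 0.01, 10000 simulations), were called cells, 4293 and 5433. Those over 50% mitochondrial UMIs were removed (544 and 395). Cells were clustered together with Leiden (resolution 1, 2000 variable genes, 30 components, 20 neighbours) with all genes of the lists left out of the variable genes and no correction between libraries. A cluster took its name from its leading marker list where the score was at least 0.75, 3 markers were detected, no other class had more markers among the 10 leading genes, and the list was not that of platelets or urothelium. A cluster led by the list of injured PT was called PT-like where the PT list came next with such a score, and otherwise stayed unnamed. This rule was settled after the clusters were seen, with the effect that a PT-like cluster led by Plin2 and Srxn1 and another led by Neat1 were named, and 123 control and 91 JPI-289 cells stayed unnamed. Podocyte-like and lymphocyte-like cells had under 50 control cells and were not compared. Scrublet marked 4 of 8787 cells and so did not work, and no doublets were removed. The libraries shared 23 barcodes among cells, where 25.6 would be shared if drawn independently. UMIs were summed by class, ratios used genes with at least 20 UMIs, and shares of cells used cells thinned to 1000 UMIs with Clopper-Pearson intervals. The members and lists were chosen with earlier results of these data known. The text names all members, the gene with most UMIs and those with the highest and lowest ratio (at least 100 UMIs) of each other list, and the 5 genes most like the inducible pair and Hspd1. In the high cells the other genes named were chosen after their values were seen. Promoter sequences came from RefSeq. The ratios were tested on simulated data. The software was scipy 1.17.1 and numpy 2.4.6 for statistics, leidenalg 0.10.2 and scanpy 1.11.5 for clusters, and Python 3.11.15.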

Additional observations from a re-analysis of the deposited data

Results flagged for a closer look

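For 4 results the counting intervals lay on opposite sides of 0 in PT-like and EC-like cells, and none of these differences was tested. Hspa1a had a log2 ratio of -0.72 in PT-like and 0.37 in EC-like cells, Hspa1b of -0.93 and 0.53, and their sum of -0.83 and 0.45. Without the 23 high cells, as chosen after seeing the data, these 3 were negative in both classes, at -0.84 and -0.94, -0.91 and -1.64, and -0.88 and -1.13. Without the cells at or above 0.3%, Hspa1a was at -0.17 in PT-like and 0.04 in EC-like cells. The sum in PT-like cells was then -0.083, and it was 0.075 with each cell weighted equally. The directions thus depended on which cells were left out and how they were weighted. Hspd1 had a log2 ratio of 0.12 in PT-like and -0.71 in EC-like cells, and of 0.13 and -0.44 without the high cells. In EC-like cells it was -0.11 without the cells at or above 0.3% and -1.40 with free RNA subtracted.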

How the results depend on the processing

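No paired analysis was possible because there was 1 library per condition. The sum of Hspa1a and Hspa1b in PT-like cells (-0.83) was -1.62 with the first step of calling alone, -1.52 with at least 1000 UMIs per cell, -0.30 without the 5% of cells with the highest doublet score, -1.22 with the listed genes among the variable genes, 0.075 with each cell equal and -1.14 with free RNA subtracted. The median of the members in PT-like cells (0.09) was 0.22 at 20% mitochondrial UMIs, 0.20 with the listed genes kept and 0.19 with each cell equal. In EC-like cells (0.13) it was 0.31 centred on all genes, 0.21 with each cell equal and 0.25 with free RNA subtracted. Over the 8 classes together 13 of 77 measured ratios of members were at least 2-fold higher and 6 lower. By class, 5.23 to 19.4% of all genes were higher and 6.54 to 18.5% lower. Of the 13, 5 were in red blood cell-like cells, where most rested on 1 cell, and 3 in neutrophil-like cells. In both classes they reached 20 UMIs only through the JPI-289 library. The counts that follow have no such share of all genes beside them. The higher ones numbered 8 with the first step alone, 8 with the listed genes kept and 5 at 100 UMIs per gene, and the lower ones 12 with free RNA subtracted. Of the 77 ratios, 69, 72 and 61 were still measured in the first 3 of these settings, so fewer could be counted. At 100 UMIs per gene, 9 of the 61 had been past 2-fold and 9 still were. Hspb1 in neutrophil-like cells turned from 1.44 to -0.90 with free RNA subtracted. Other alternatives were chosen after seeing the data. Leaving out the cells at or above 1% gave a median of -0.24 in EC-like cells and 8 higher, with 72 of the 77 ratios still measured. Leaving out those at or above 0.3% gave a median of 0.07 in EC-like cells and -0.083 for the sum in PT-like cells. It left 7 higher, with 70 of the 77 ratios still measured. Leaving out the 4 PT-like clusters with no leading PT marker gave 0.0032 for the sum and 0.34 for the median in PT-like cells. Leaving out the 2 with a PT score under 1 gave 0.20 for that median. Hspb1, Hsp90aa1, Dnajb1 and Bag3 stayed above 2-fold in PT-like cells in all alternatives listed at the outset, and without the 4 clusters Bag3 was at 0.91 and Hspe1 went from -0.67 to -0.079. The causes were not tested. The depth limits Hsph1, Bag3 and Dnajb1 in small classes, where fewer than 50 UMIs stand behind a level.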
